A study of Sus scrofa with 8 samples.

Results

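The genes described here are the cyclins and cyclin-dependent kinase (CDK) inhibitors of the G1 phase, namely the D-type cyclins CCND1, CCND2 and CCND3, the E-type cyclins CCNE1 and CCNE2, the CIP/KIP inhibitors CDKN1A, CDKN1B and CDKN1C, and the INK4 inhibitors CDKN2B and CDKN2C. They were chosen by name, as rows of the gene count table whose symbol, without its suffix, was one of these 10, and the rows of a gene were summed. All 10 were found among the 30282 genes of the table, and all 10 passed the filter on low counts that left 14475 genes for testing.

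The libraries came from porcine pancreatic ductal organoids (PPDO), which are cultures grown in Cultrex matrix from ducts picked out of the pig pancreas. Ducts of German landrace pigs, wild-type or carrying an INS-eGFP transgene driven by the insulin promoter, gave the organoids, and which of these lines carried the transgene is not given in the sources used here. There were 4 lines, Em from an embryo, EPN1 and EPN2 from early postnatal pigs and LPN from a late postnatal pig, and each was grown for a week in complete medium (control) and in differentiation medium (treated), which made 8 libraries. Complete medium held EGF, FGF10, gastrin, prostaglandin E2, noggin, WNT3a and R-spondin, and differentiation medium held none of them. Both media held the TGF-beta receptor inhibitor A83-01, the ROCK inhibitor Y-27632, N2, B27 without vitamin A, nicotinamide and N-acetyl-cysteine, so that no group was free of A83-01. Another field of the sample records names an endocrine induction medium for all 8 samples, and the media were assigned by the sample titles. Each line had 1 library per medium and each stage except early postnatal 1 line, so that stage and line cannot be told apart. The paper refers to these organoids as early passage, without giving the passage of each line in its text. Any difference in passage between the lines cannot be told apart from the line either.

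In G1, D-type cyclins bind CDK4 and CDK6 and E-type cyclins bind CDK2, and the active kinases phosphorylate the retinoblastoma protein family, which releases E2F factors and starts the transcription of genes for DNA replication. INK4 inhibitors bind CDK4 and CDK6 and keep the D-type cyclins from them, whereas CIP/KIP inhibitors bind cyclin-CDK complexes and block CDK2 above all. Mitogens and WNT signals act on this switch largely through the D-type cyclins, and the inhibitors respond to p53, FOXO factors, TGF-beta and other signals that halt division. Much of the control of CDKN1B and of the cyclins acts on the stability of the proteins, which RNA counts do not measure.

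Library totals ranged from 40553593 to 47910657 counts, and levels are given as CPM, the usual depth-normalised count, scaled by the TMM factors of edgeR. A listed 0 is compatible with up to 3 counts, or 0.0618 to 0.0731 CPM, a limit for counting error alone. Levels were not compared between genes, because transcript lengths were not used. In these bulk libraries, fewer cells of a type and less RNA per cell cannot be told apart. The 7 ductal epithelial markers used (KRT7, KRT8, KRT18, SOX9, CFTR, EPCAM and CDH1) were all tested. Their summed level was 6531 to 9072 CPM in complete and 3799 to 14030 CPM in differentiation medium. The lowest sum was in EPN2 and the highest in Em, both in differentiation medium. From complete to differentiation medium, EPN2 went from 1933 to 522 CPM for KRT7 and from 2270 to 425 for KRT8. It went from 375 to 45.2 CPM for KRT18 and from 85.1 to 2.96 for CFTR. SOX9 and EPCAM were also lower there, whereas CDH1 rose from 1569 to 2502 CPM and was higher in every line. KRT7, KRT8 and KRT18 were also lower in LPN but higher in Em and EPN1. CFTR was also lower in Em but higher in EPN1 and LPN. Of the other cell types, the summed levels of the acinar markers were 124 to 163 and 149 to 319 CPM, nearly all from CTRC, with PNLIP at 3 counts or fewer in every library. Endocrine markers summed to 0.975 to 3.23 and 0.876 to 23.8 CPM, the highest in Em in differentiation medium, and PPY and NEUROD1 were at 3 counts or fewer throughout. Stromal markers summed to 147 to 420 and 217 to 542 CPM, nearly all from THY1. Endothelial markers summed to 21.9 to 34.9 and 16.3 to 44.7 CPM, with CDH5 at 3 counts or fewer, and immune markers to 29.2 to 59.3 and 9.94 to 95.2 CPM, with CD3E and MS4A1 at 3 counts or fewer. None of the 22 markers of all 6 lists that were tested was called between the media by edgeR, 5 had an unadjusted p under 0.05, edgeR with the line block called 2 and DESeq2 called 3. The part of these cells in the results below was not tested.

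Between the media, the members moved in both directions. CCND1, the D-type cyclin best known as a WNT target, and CDKN1C, which encodes the inhibitor p57, fell in differentiation medium and did so in all 4 lines. CDKN2B, which encodes the inhibitor p15, was 2.04-fold to 3.27-fold higher there in each line and rose when the line was taken into account. In the edgeR quasi-likelihood test without a term for the line, 0 of the 10 members were called higher, against 2.87% of all tested genes, and 2 were called lower (CCND1 and CDKN1C), against 4.10% of all tested genes. At an unadjusted p under 0.05 there were 3, CCND1, CCNE2 and CDKN1C, all lower, against 14.3% of all tested genes that were lower and 13.0% that were higher. DESeq2 called the same 2 as edgeR, both lower, against 20.1% of the genes it tested in either direction (2884 genes, 1441 of them higher). With the block DESeq2 called 6, 1 of them higher, against 37.3% in either direction (5393 genes, 2794 of them higher). In the edgeR fit that blocks on the line, 1 member was called higher (CDKN2B), against 9.48% of all tested genes, and 4 were called lower (CCND1, CCND2, CCNE1 and CDKN1C), against 10.4%. By direction alone, 2 members were higher in all 4 lines (CDKN1B and CDKN2B), against 23.9% of tested genes, and 5 were lower in all 4 (CCND1, CCND2, CCNE1, CCNE2 and CDKN1C), against 24.2%. The libraries of the media did not overlap for 1 member that was higher (CDKN1B), against 8.82%, and for 2 that were lower (CCND1 and CDKN1C), against 9.96%. The median log2 fold change of the members was -0.46 (-0.57 with the block) beside 0.01 over all tested genes (-0.01 with the block), with 8 members below 0 and 2 above.

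**Figure D1:**
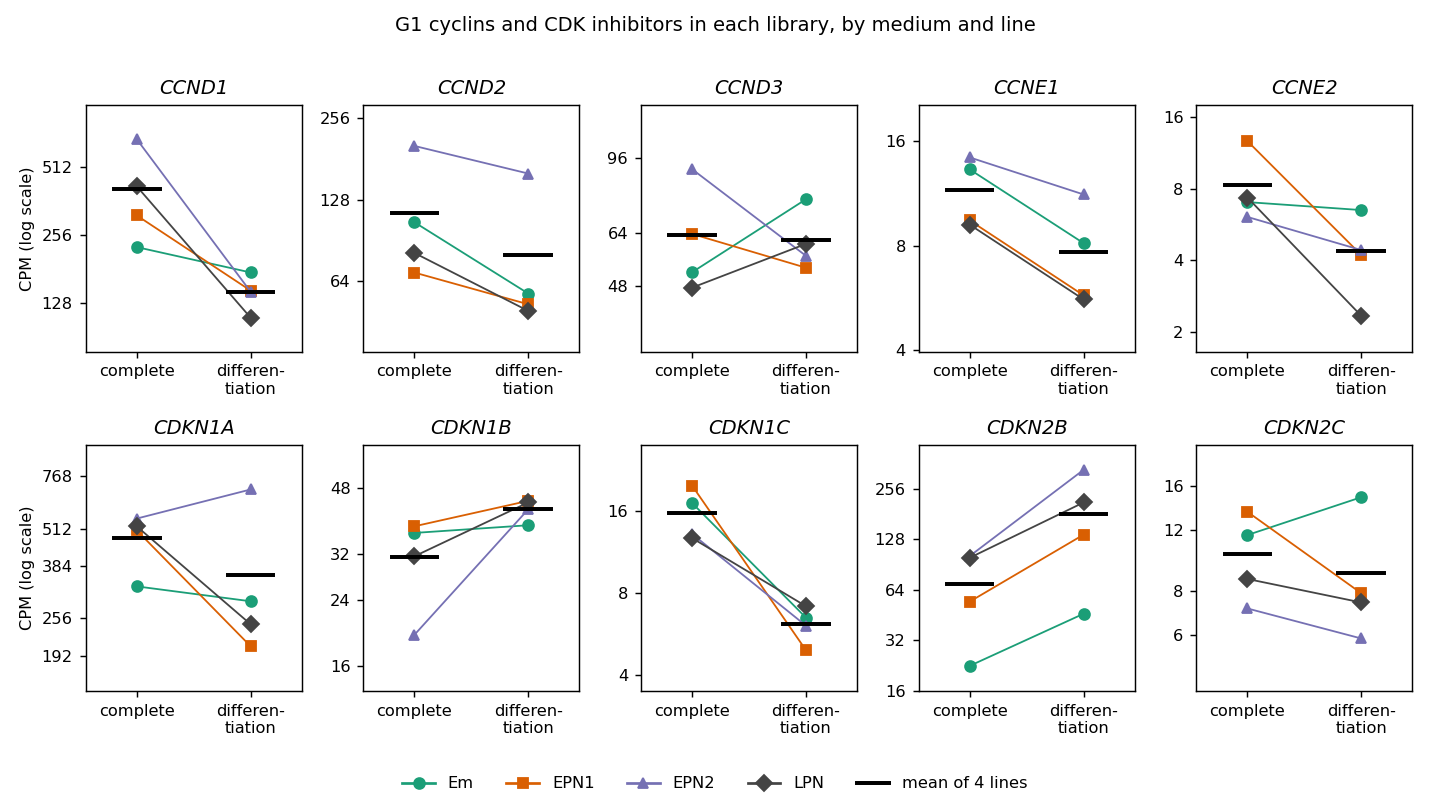
Level of each G1 cyclin and CDK inhibitor in CPM on a log scale with its own range in each panel, in complete and in differentiation medium, with 1 coloured line and symbol per PPDO line and a black bar for the mean of the 4 lines. All 4 lines go down for CCND1, CCND2, CCNE1, CCNE2 and CDKN1C and up for CDKN1B and CDKN2B, while CCND3, CDKN1A and CDKN2C go both ways.

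CCND1 (ENSSSCG00000037900, chr2:3621242-3633380 in the RefSeq annotation of Sscrofa11.1) encodes cyclin D1, which couples mitogen signals to CDK4 and CDK6. In complete medium its level was 227 CPM in Em, 314 in EPN1, 683 in EPN2 and 423 in LPN. In differentiation medium it was 175 CPM in Em, 146 in EPN1, 144 in EPN2 and 111 in LPN. The lowest level in complete medium, that of Em, was above the highest in differentiation medium, also of Em, and the 3.01-fold range among the lines in complete medium was 1.59-fold in differentiation medium. The mean went from 412 ± 198 to 144 ± 26.5 CPM (SD, n = 4), which was -1.52 on the log2 scale with an SE of 0.34 (adjusted p = 0.0399 from edgeR). Em had the smallest difference, at 1.30-fold, and EPN2 the largest, at 4.74-fold lower in differentiation medium. With 1 library left out, the call was kept only without Em or without EPN2 in complete medium (adjusted p = 0.0358 and 0.0392 from edgeR). It was lost without LPN or EPN1 in complete medium (0.0987 and 0.0822) and without Em, LPN, EPN1 or EPN2 in differentiation medium (0.0621, 0.104, 0.113 and 0.0657), with a log2 fold change between -1.70 and -1.16 in the 8 fits. With the block it was -1.42 (adjusted p = 0.0410 from edgeR), and that call was kept without both libraries of Em (0.0337) and lost without those of EPN1, EPN2 or LPN (0.125, 0.0637 and 0.159).

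CCND2 (ENSSSCG00000038694, chr5:66092483-66114575) encodes cyclin D2, another partner of CDK4 and CDK6. Its level was 106 CPM in Em, 68.8 in EPN1, 202 in EPN2 and 81.2 in LPN in complete medium, and 57.5, 52.5, 160 and 49.6 CPM in the same order in differentiation medium. EPN2 stood above the other lines in both media, and the other lines in differentiation medium lay within 49.6 to 57.5 CPM. The log2 fold change was -0.52 (SE 0.49, 95% interval -1.64 to 0.60, adjusted p = 0.522 from edgeR), and without EPN2 in complete or in differentiation medium it was -0.09 or -1.10. Each line was nevertheless lower, by 1.27-fold in EPN2 to 1.83-fold in Em, and with the line as a block the log2 fold change of -0.58 passed the threshold (SE 0.13, adjusted p = 0.0335 from edgeR). That blocked call was lost without both libraries of Em, EPN1 or LPN (0.0738, 0.0976 and 0.160) and kept without those of EPN2 (0.0344).

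CCND3 (ENSSSCG00000032284, chr7:37087336-37182462), the gene of cyclin D3, had 51.7 CPM in Em, 63.6 in EPN1, 90.3 in EPN2 and 47.5 in LPN in complete medium. In differentiation medium it had 76.7, 52.96, 56.5 and 60.3 CPM in the same order. Em and LPN were higher and EPN1 and EPN2 lower, so that the media overlapped and the log2 fold change was -0.04 (SE 0.22, 95% interval -0.55 to 0.48, adjusted p = 0.931 from edgeR).

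The E-type cyclins activate CDK2 at the end of G1. CCNE1 (ENSSSCG00000002855, chr6:39919541-39933224) had 13.3 CPM in Em, 9.45 in EPN1, 14.4 in EPN2 and 9.19 in LPN in complete medium, and 8.13, 5.75, 11.2 and 5.60 CPM in differentiation medium. The order of the lines was the same in both media, EPN2 highest, then Em, EPN1 and LPN, and the difference was 1.63-fold in Em, 1.64-fold in EPN1 and in LPN and 1.28-fold in EPN2. Without the block the log2 fold change of -0.59 did not pass (SE 0.29, adjusted p = 0.230 from edgeR), and with it the value of -0.62 did (SE 0.16, adjusted p = 0.0466). The blocked call was lost without both libraries of any line, with adjusted p from 0.0536 without EPN2 to 0.194 without LPN (edgeR).

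CCNE2 (ENSSSCG00000006095, chr4:41802090-41821870), the gene of cyclin E2, had 7.02 CPM in Em, 12.7 in EPN1, 6.08 in EPN2 and 7.34 in LPN in complete medium and 6.50, 4.21, 4.41 and 2.34 CPM in differentiation medium. The difference was 2.99-fold in EPN1 and 3.10-fold in LPN and no more than 1.37-fold in Em and EPN2. The log2 fold change was -0.92 (SE 0.37, adjusted p = 0.159 from edgeR) and -0.95 with the block (adjusted p = 0.0992), and DESeq2 with the block called it lower (adjusted p = 0.0325).

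CDKN1A (ENSSSCG00000001565, chr7:32354776-32363771) encodes p21, the CDK inhibitor that p53 switches on. It had 328 CPM in Em, 506 in EPN1, 554 in EPN2 and 522 in LPN in complete medium, and 292, 207, 694 and 245 CPM in differentiation medium. EPN1 and LPN were 2.45-fold and 2.13-fold lower in differentiation medium, Em was 1.12-fold lower and EPN2 was 1.25-fold higher, the only line of the 4 to be higher. The range among the lines was 1.69-fold in complete and 3.36-fold in differentiation medium. The log2 fold change was -0.41 (SE 0.39, 95% interval -1.32 to 0.50, adjusted p = 0.534 from edgeR), -0.56 with the block (adjusted p = 0.228) and -0.85 with the block and without both libraries of EPN2 (adjusted p = 0.0722).

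CDKN1B (ENSSSCG00000037144, chr5:59731224-59735831) encodes p27, which restrains CDK2 in resting cells. Its level was 36.4 CPM in Em, 37.9 in EPN1, 19.4 in EPN2 and 31.5 in LPN in complete medium and 38.2, 44.4, 42.1 and 43.9 CPM in differentiation medium. Every library in differentiation medium was above every library in complete medium, although the highest complete medium library, EPN1, and the lowest differentiation medium library, Em, were only 37.9 and 38.2 CPM. EPN2, the lowest line in complete medium, had the largest difference, at 2.17-fold, and Em the smallest, at 1.05-fold. The mean was 31.3 ± 8.39 and 42.1 ± 2.82 CPM (SD, n = 4), and the log2 fold change of 0.43 did not pass the threshold (SE 0.21, 95% interval -0.05 to 0.91, adjusted p = 0.224 from edgeR), nor did the blocked value of 0.47 (adjusted p = 0.135).

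CDKN1C (ENSSSCG00000040461, chr2:2019391-2022092) encodes p57, the CIP/KIP inhibitor best known for cell cycle exit in the embryo. It had 17.2 CPM in Em, 19.9 in EPN1, 13.2 in EPN2 and 12.8 in LPN in complete medium. In differentiation medium it had 6.50, 4.93, 6.07 and 7.16 CPM in the same order. The lowest library in complete medium was 12.8 CPM and the highest in differentiation medium 7.16 CPM, both of LPN. The mean fell from 15.8 ± 3.40 to 6.17 ± 0.936 CPM (SD, n = 4), which is 2.55-fold, or -1.35 on the log2 scale (SE 0.22, 95% interval -1.86 to -0.85, adjusted p = 0.0189 from edgeR). EPN1 had the largest difference, at 4.003-fold, and LPN the smallest, at 1.77-fold. Of the 8 fits that left out 1 library, 5 kept the call, and it was lost without EPN1 in complete medium (adjusted p = 0.0599 from edgeR) and without LPN or EPN1 in differentiation medium (0.0513 and 0.0713), with a log2 fold change between -1.45 and -1.20 throughout. With the block it was -1.34 (adjusted p = 0.0220), and that call was lost without both libraries of Em, EPN1 or LPN (0.0598, 0.0813 and 0.0788).

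CDKN2B (ENSSSCG00000034120, chr1:200666250-200770880) encodes p15, an INK4 inhibitor known as a TGF-beta target. In complete medium it had 22.5 CPM in Em, 54.5 in EPN1, 102 in EPN2 and 99.5 in LPN. In differentiation medium it had 46.1, 137, 333 and 213 CPM in the same order. The media overlapped, because LPN and EPN2 in complete medium lay above Em in differentiation medium, but every line was higher, by 2.04-fold in Em, 2.14-fold in LPN, 2.51-fold in EPN1 and 3.27-fold in EPN2. The mean was 69.6 ± 38.2 and 182 ± 122 CPM (SD, n = 4), and without the block the log2 fold change of 1.39 did not pass the threshold (SE 0.65, 95% interval -0.10 to 2.87, adjusted p = 0.207 from edgeR). With the block it was 1.29 (SE 0.14, 95% interval 0.94 to 1.65, adjusted p = 0.0112 from edgeR), a 2.45-fold difference with an interval from 1.91-fold to 3.13-fold, higher in 4 of 4 lines. The blocked call was kept without both libraries of Em or EPN2 (0.0238 and 0.0114) and lost without those of EPN1 or LPN (0.0710 and 0.0633), and the log2 fold change was between 1.15 and 1.40 in these 4 fits.

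CDKN2C (ENSSSCG00000003876, chr6:161160290-161166681) encodes p18, another INK4 inhibitor. Its level was 11.6 CPM in Em, 13.5 in EPN1, 7.14 in EPN2 and 8.68 in LPN in complete medium, and 14.9, 7.90, 5.86 and 7.43 CPM in differentiation medium. Em was higher in differentiation medium and the other lines lower, and the log2 fold change was -0.18 (SE 0.34, 95% interval -0.97 to 0.61, adjusted p = 0.765 from edgeR).

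**Figure D2:**
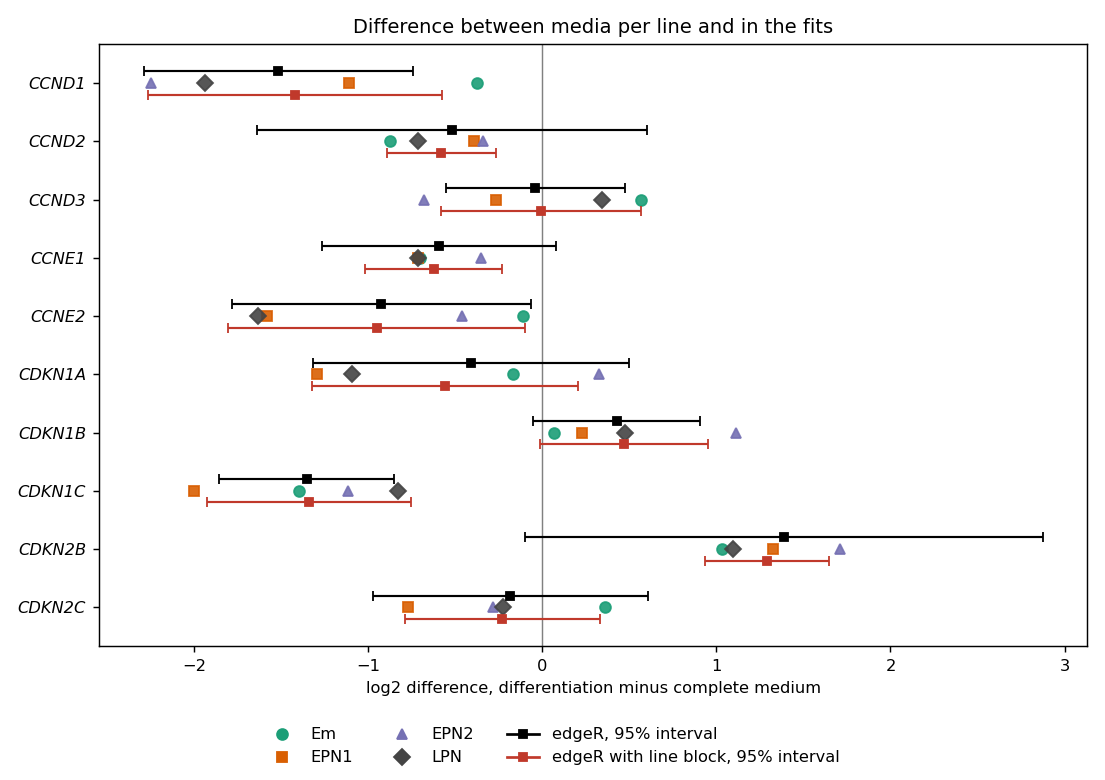
Difference between the media on the log2 scale, differentiation minus complete, for each member. Coloured symbols are the 4 lines, black squares the edgeR estimate with its 95% interval, and red squares the estimate with the line as a block. The blocked interval of CDKN2B, 0.94 to 1.65, is much narrower than the unblocked interval of -0.10 to 2.87, whereas the intervals of CCND1 and CDKN1C are of like width in both fits.

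In some members more of the variance of log2 CPM lay between the 4 lines than between the 2 media, a comparison of 4 groups with 2. In an edgeR test of the 4 lines with the medium as a term, 2 of the 10 members were called, CDKN2B (adjusted p = 0.0189) and CCND2 (adjusted p = 0.0258), against 5.14% of all tested genes. For CDKN2B the mean log2 CPM of a line rose from 5.01 in Em over 6.43 in EPN1 and 7.19 in LPN to 7.53 in EPN2, which is a 5.71-fold range of the line means, 4.52-fold in complete and 7.23-fold in differentiation medium. LPN and EPN2 were neighbours in that order at 99.5 and 102 CPM in complete medium. For CCND2 the line means spanned 2.99-fold, with EPN2 at 7.49 log2 CPM and the other lines between 5.91 and 6.28. The median gene spanned 0.71 on the log2 scale between its highest and lowest line. Each line contributed 2 libraries to this test, and with 1 library left out the call of CDKN2B was kept without EPN2 in either medium and lost without any other library, with adjusted p up to 0.0825, while that of CCND2 was kept without Em in either medium or EPN2 in complete medium and lost otherwise, up to 0.0946 (edgeR).

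CDKN1C was at the other end, with 1.18-fold between its highest and lowest line mean. Of the variance of its log2 CPM over the 8 libraries, 1.48% lay between lines, 89.1% between media and 9.41% was left to neither. For CCND1 the shares were 9.35%, 71.6% and 19.1%. For CDKN2B they were 68.3%, 30.5% and 1.29%, and for CCND2 80.7%, 16.8% and 2.49%. Over all tested genes the medians of these shares were 49.4%, 24.5% and 14.6%. CCND3 had 0.0158% between media and 71.9% left over, as its lines went opposite ways.

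**Figure D3:**
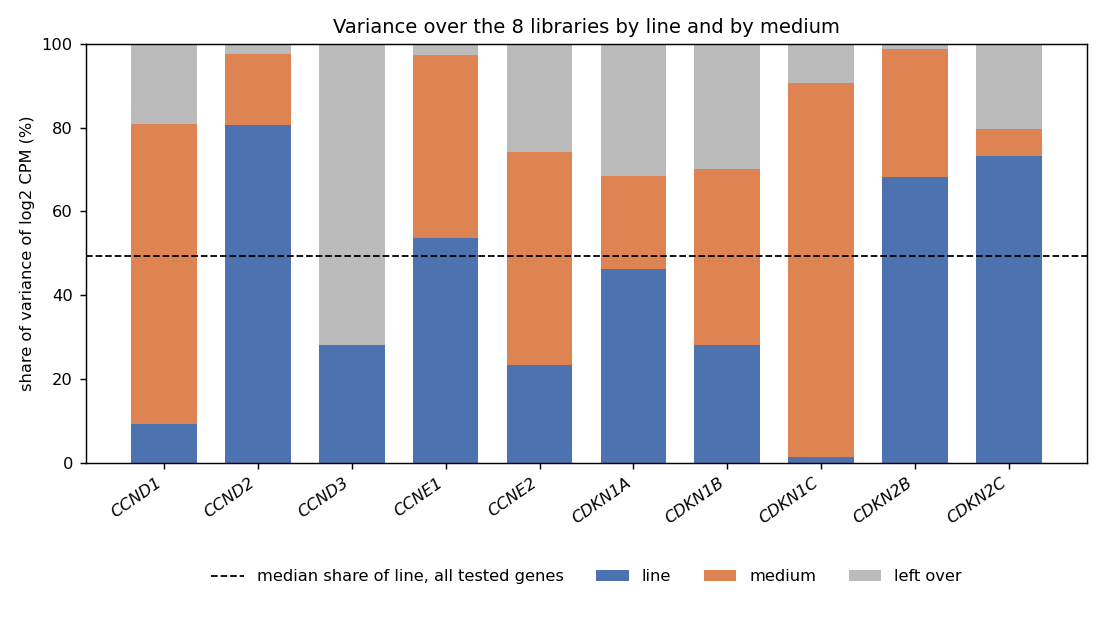
Stacked bars of the share of variance of log2 CPM over the 8 libraries, in percent, that lay between lines (blue), between media (orange) and in neither (grey) for each member, with a dashed line at 49.4%, the median share of the line over all tested genes. CDKN1C and CCND1 are mostly orange, and so, by a narrow margin, is CCNE2 (50.9%). CCND2, CDKN2C, CDKN2B and, less so, CCNE1 (53.7%) are mostly blue, and CCND3 is mostly grey. In CDKN1A and CDKN1B no colour fills most of the bar.

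Across the 8 libraries, which share lines and media, the members were also compared with each other as a description. CCND1 and CDKN1B ran opposite ways (Pearson r = -0.91), the library with the most CCND1, EPN2 in complete medium, being the one with the least CDKN1B. CCND2 and CCNE1 ran together (r = 0.88), as did CCND2 and CDKN1A (r = 0.77). The INK4 inhibitors CDKN2B and CDKN2C ran opposite ways (r = -0.85), with Em the lowest line for CDKN2B and the highest for CDKN2C and EPN2 the reverse. Among tested genes with a symbol, the log2 CPM most like that of CDKN1C was found for SNRNP27, BCKDK and PIP4P2 (r = 0.98 each). For CCND1 it was found for SERPINB6, FKBP9 and MAP3K15 (r = 0.96 each). For CCNE2 it was found for RNF26 (r = 0.99), KIF22 (r = 0.98) and KDELR1 (r = 0.97), over the 8 libraries.

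CDKN2A, the INK4 gene beside CDKN2B whose products are p16 and ARF, is listed in the table under the name P14ARF and was matched by its identifier (ENSSSCG00000005134). It had 75 counts in Em, 75 in EPN1, 691 in EPN2 and 249 in LPN in complete medium and 96, 263, 835 and 395 counts in differentiation medium. Between 31.7% and 44% of its counts came from a row with the suffix -ext, whereas for the members that share was at most 1.35%. Like CDKN2B it was higher in all 4 lines and highest in EPN2, and its log2 CPM ran with that of CDKN2B (r = 0.87 over the 8 libraries, a description). Its log2 fold change between media was 0.51 (SE 0.88, adjusted p = 0.743 from edgeR) and 0.68 with the block (adjusted p = 0.156), and it was called between the lines (adjusted p = 0.0414). CDKN2A and CDKN2B are similar in sequence, so that reads could have been split between them and both values are uncertain to that extent.

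The other inhibitors listed with it were CDKN2D, an INK4 gene, and CDKN3, which encodes a phosphatase of CDKs and is itself expressed by dividing cells. Of these 3 genes 1 was called lower and 0 higher by edgeR, without and with the block, and by DESeq2. Of all tested genes, edgeR called 2.87% higher and 4.10% lower, and with the block 9.48% and 10.4%. DESeq2 called 20.1% in either direction (2884 genes, 1441 of them higher). At an unadjusted edgeR p under 0.05, 13.0% were higher and 14.3% lower. These shares stand beside the counts of this list and of every list below. CDKN3 had 18.6 CPM in Em, 19.8 in EPN1, 10.8 in EPN2 and 12.5 in LPN in complete medium and 8.48, 5.70, 6.61 and 4.32 CPM in differentiation medium, with no overlap. Its log2 fold change was -1.30, with an SE of 0.29 (adjusted p = 0.0413 from edgeR). That call was kept only without EPN2 in complete or Em in differentiation medium and was lost without any other library (adjusted p up to 0.118). For CDKN2D the log2 fold change was -0.52, with an SE of 0.39 (adjusted p = 0.413).

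Of the 7 genes of CDKs and the CDK-activating kinase, 0 were called higher or lower by edgeR without or with the block, 2 had an unadjusted p under 0.05, and DESeq2 called 1 lower. CDK4, the kinase of the D-type cyclins, had 59.0 CPM in Em, 35.7 in EPN1, 41.2 in EPN2 and 43.5 in LPN in complete medium and 64.7, 66.8, 56.6 and 58.4 CPM in differentiation medium, higher in all 4 lines by 0.46 on the log2 scale in the fit, with an SE of 0.17 (adjusted p = 0.127). MNAT1, a subunit of the CDK-activating kinase, had -0.46 (SE 0.13, adjusted p = 0.0713), and CCNH and CDC25A lay between -0.16 and 0.05.

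The pocket proteins and E2F factors, the targets of the G1 kinases, had 6 of 13 tested genes above 0 and 7 below, with a median log2 fold change of -0.07. By edgeR without the block 0 were called, 2 had an unadjusted p under 0.05 and DESeq2 called 1 higher and 1 lower. With the block 1 was called, the pocket protein RBL1, which was lower (log2 fold change -0.40, adjusted p = 0.0416, and -0.39 without the block, adjusted p = 0.0864). E2F4 had 0.46 (SE 0.14, adjusted p = 0.0948), TFDP2 0.53 (adjusted p = 0.221) and E2F2 -0.71 (adjusted p = 0.273).

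Of the ubiquitin ligase parts and related genes that set the turnover of cyclins and inhibitors, 12 of 13 were tested, with a median of 0.00 and 0 called by edgeR without the block or by DESeq2, and 1 at an unadjusted p under 0.05. AMBRA1, which directs the breakdown of D-type cyclins, was at 0.41 on the log2 scale, with an SE of 0.14 (adjusted p = 0.120 from edgeR). SKP1 and RBX1, subunits of the SCF ligase, had 0.28 and 0.16. CKS2, a CDK-binding protein of dividing cells, was called lower with the block (-0.84, adjusted p = 0.0161), with 31.2 CPM in Em, 22.5 in EPN1, 20.0 in EPN2 and 11.9 in LPN in complete medium and 19.2, 11.4, 11.6 and 6.41 CPM in differentiation medium.

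The genes of S phase and mitosis, which follow the G1 switch, were tested for 23 of 27, and 19 of these were below 0 and 4 above, with a median log2 fold change of -0.62. In edgeR without the block 0 were called, 6 had an unadjusted p under 0.05 and DESeq2 called 1 lower. With the block 7 were called lower (CCNB1, CCNB2, CDK1, TOP2A, BUB1, PLK1 and MYBL2) and 0 higher. By direction, 15 were lower in all 4 lines, against 24.2% of all tested genes. Those higher in all 4 lines were 3 (MCM7, PCNA and AURKB), against 23.9% of all tested genes. The replication genes MCM2 to MCM7 lay between -0.53 (MCM4) and 0.31 (MCM7) without the block. PCNA had 0.26 and CDC6 -1.05, and none of these replication genes was called in either fit. Genes beyond the 4 with the smallest p are named here after their values were seen. BUB1, a mitotic checkpoint kinase, had 39.2 CPM in Em, 32.8 in EPN1, 26.4 in EPN2 and 19.1 in LPN in complete medium and 17.8, 9.53, 12.4 and 4.01 CPM in differentiation medium, with no overlap. Its log2 fold change was -1.43 with an SE of 0.44 (adjusted p = 0.0866 from edgeR) and -1.56 with the block (adjusted p = 0.0171). CDK1, the kinase of mitosis, was at -1.34 on the same scale, with an SE of 0.52 (adjusted p = 0.149), and at -1.48 with the block (adjusted p = 0.0170). CDC45 and TYMS had -0.72 and -0.70, neither called in either fit. Both BUB1 and CDK1 were lowest in LPN in each medium, the line in which CCNE2 was lowest in differentiation medium.

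**Figure D4:**
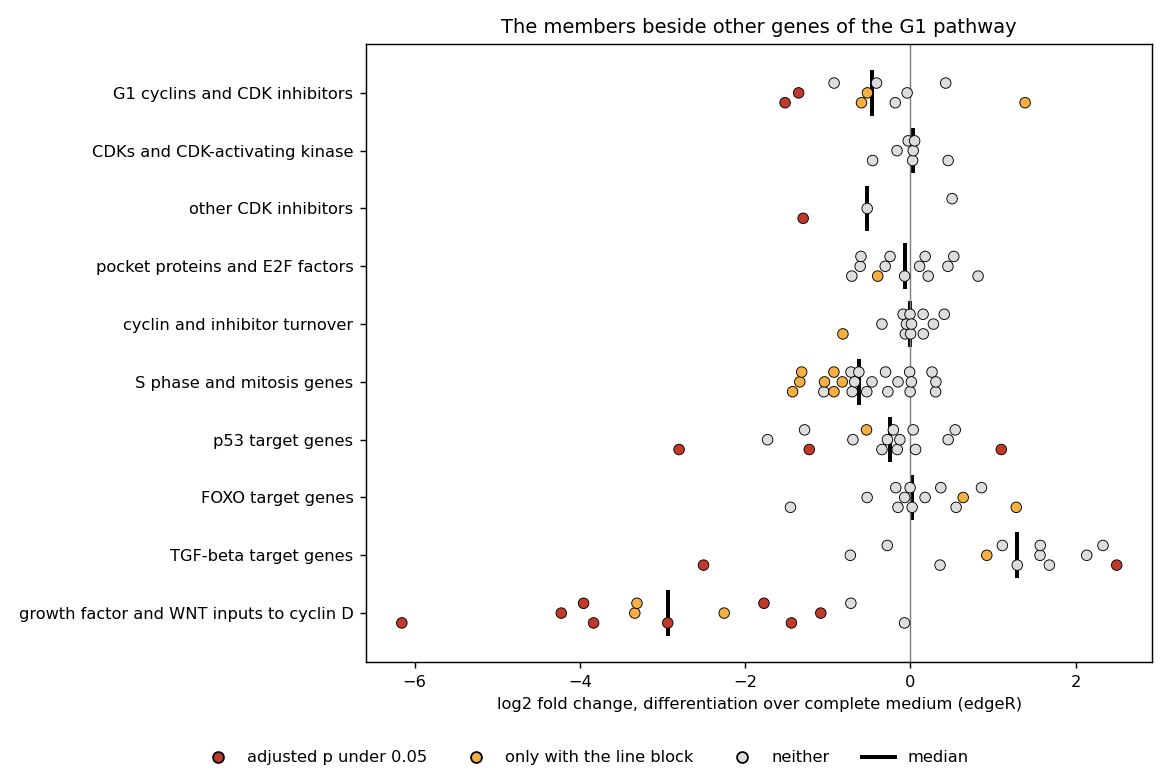
Log2 fold change between the media from edgeR without a block for each tested gene (1 point each), in rows for the 10 members and for 9 lists of other genes around the G1 switch, with a black bar at the median of each row. Red points were called, orange points only with the line as a block. The members range from -1.52 to 1.39, most S phase and mitosis genes lie below 0, and the 13 growth factor and WNT inputs all lie below 0 with a median of -2.94.

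Lists of genes that share a known regulator with a member were read beside it. For the inputs to the D-type cyclins, immediate early genes, MAPK feedback genes and WNT targets known to rise with the same mitogens and WNT signals, 13 of 15 were tested, all 13 were below 0 with a median of -2.94, and 8 were called lower and 0 higher by edgeR (11 lower with the block, and 11 lower by DESeq2). The transcription factor genes TCF7 and FOS had log2 fold changes of -2.94 (SE 0.30, adjusted p = 0.00682) and -1.77 (SE 0.24, adjusted p = 0.0128), and both were called in all 8 fits that left out 1 library. ETV4, a target of FGF and MAPK signals, had -3.96 (SE 0.61, adjusted p = 0.0167). LGR5, a WNT target and R-spondin receptor, went from 7.38 ± 3.41 CPM to 0.0995 ± 0.0910 CPM (SD, n = 4), close to the limit of 3 counts. CCND1, at -1.52, CCND2, at -0.52, and CCND3, at -0.04, moved less than the median of this list, and the differences were not tested. CCND3 was higher in 2 lines and lower in 2.

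Of the other p53 targets, 16 of 22 were tested, with 5 above 0, 11 below and a median of -0.24. By edgeR without the block 1 was called higher and 2 lower, 7 had an unadjusted p under 0.05 and DESeq2 called 1 higher and 4 lower. SESN1, an antioxidant sestrin, was called higher (1.10 on the log2 scale, SE 0.24, adjusted p = 0.0391 from edgeR), and GDF15 and RRM2B were called lower (-2.80, SE 0.45, adjusted p = 0.0186, and -1.22, SE 0.23, adjusted p = 0.0272). With the block the same genes were called, and CCNG1, named here after its values were seen, was called lower as well (-0.54, adjusted p = 0.0250). GDF15 had 44.1 CPM in Em, 20.5 in EPN1, 22.6 in EPN2 and 24.1 in LPN in complete medium and 5.61, 3.40, 5.37 and 1.61 CPM in differentiation medium. DDB2 had -1.73 (SE 0.46, adjusted p = 0.0601). CDKN1A itself was not called in either fit.

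The FOXO targets, the list known for CDKN1B, had 13 of 14 tested, 7 above 0 and 6 below, with a median of 0.02. Without the block 0 were called by edgeR, 3 had an unadjusted p under 0.05 and DESeq2 called 2 higher. With the block 2 of the 13 were called higher, against 9.48% of all tested genes. They were CAT, which encodes catalase (0.64, adjusted p = 0.0462 from edgeR), and PIK3IP1, an inhibitor of PI3K (1.43, adjusted p = 0.0325). FOXO1 itself had 0.86 (SE 0.35, adjusted p = 0.157) and TRIB3 -1.45 (SE 0.67, adjusted p = 0.205).

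The TGF-beta targets, the list known for CDKN2B, had all 13 tested, 10 above 0 and 3 below, with a median of 1.29. By edgeR without the block 1 was called higher and 1 lower, 8 had an unadjusted p under 0.05 and DESeq2 called 6 higher and 1 lower. SMAD7, an inhibitory SMAD that TGF-beta and BMP both switch on, was called higher, with 2.54 CPM in Em, 4.14 in EPN1, 4.41 in EPN2 and 2.95 in LPN in complete medium and 39.5, 18.3, 14.0 and 7.49 CPM in differentiation medium, a log2 difference of 2.50 with an SE of 0.51 (adjusted p = 0.0315 from edgeR). TGFB1, which encodes a TGF-beta ligand, was called lower (-2.50, SE 0.40, adjusted p = 0.0182), with 82.0 to 194 CPM in complete and 12.3 to 32.1 CPM in differentiation medium. With the block SKIL, named here after its values were seen, was called higher as well (1.01, adjusted p = 0.0330). ID1, which is better known as a BMP target, had 1.11 (SE 0.33, adjusted p = 0.0780), and PMEPA1 had 1.57 (SE 0.49, adjusted p = 0.0904).

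With all 8 libraries, edgeR without the block called 14 genes of these 9 lists. The number called fell to 2 without EPN1 in differentiation medium and to 5 without LPN or without EPN1 in complete medium. Without LPN in differentiation medium it was 6. Each count covers all listed genes called in that fit, whether or not among the 14. The calls of SESN1, SMAD7, RRM2B, TGFB1, GDF15, ETV4 and LGR5 were lost in 7, 4, 4, 3, 2, 2 and 1 of the 8 fits, with adjusted p at most 0.114, 0.0968, 0.0849, 0.0612, 0.0726, 0.0616 and 0.0616 (edgeR).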

How the data were processed

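Bulk RNA of 8 cultures, 4 PPDO lines in 2 media, had been selected by poly(A) (RNA integrity number above 9) and sequenced in paired-end mode on a NovaSeqX+. The authors ran an nf-core pipeline, with salmon for quantification and a pig genome under their own annotation, and deposited expected counts per gene, and whether these were scaled by gene length could not be settled from the table. The submitters' processing notes name the build Sscrofa11.1, in which RefSeq positions were looked up by symbol. The members and all gene lists were chosen with earlier results of these data known.

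Of the 56060 rows of the table, 8 rows of reporters (0.00142% of counts) were left out, and the rows of a gene were summed and rounded to whole numbers, which gave 30282 genes. Lines were read from the column names. The analysis was run in R 4.3.3, with edgeR 4.0.16 as the main tool (TMM, whose factors were 0.935 to 1.06, the default expression filter, quasi-likelihood test, Benjamini-Hochberg adjustment over all 14475 tested genes, threshold 0.05) with the medium as the only term, after the study, which names no other. DESeq2 1.42.0 was an alternative. Log2 CPM used a prior count of 2, and the scripts were tested on simulated data. Each line was grown in both media, so that the lines pair the libraries. With the medium means subtracted, libraries of the same line correlated at 0.400 to 0.658 (4 pairs) and libraries of different lines at -0.479 to 0.242 (12 pairs). The lines are biological replicates by the study's account. The p-values of the fits without the block measure the spread between them. In the fits with the block and in the test of the lines, the error is the spread left after line and medium.

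All 10 members are named. Of each list, up to 4 genes with the smallest p between media are named, called or not. For the 3 members with the smallest p, the 3 genes with a symbol whose log2 CPM correlated most with theirs are named. The symbols CCNA2, MKI67, AURKA, RRM2, CKS1B, JUN and KRT19 and some p53 and acinar genes of the lists were not matched and are not analysed here, and some further marker genes are not reported here and were left out of the marker sums and counts.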

Additional observations from a re-analysis of the deposited data

Results flagged for a closer look

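In a test for a library far from the others of its medium, run for the 10 members in both media (20 groups of 4 libraries), 1 group stood out. CCND2 in differentiation medium was 160 CPM in EPN2 and 49.6 to 57.5 CPM in the other lines, and on the log2 CPM scale the gap below EPN2 was 0.873 of the whole range, above Dixon's 95% critical value for 4 samples. Chance alone gives about 1 such group in 20. EPN2 was also the line with the most CCND2 in complete medium, at 202 CPM.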

How the results depend on the processing

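Among the 10 members, 2 were called between the media, and this was 5 with the line as a replicate block in edgeR, 6 with the block in DESeq2 (CCNE2 in addition), 1 with no filter on low counts (CDKN1C) and 0 to 2 with 1 library left out. Fits with the block that left out both libraries of a line were chosen after seeing the data and called 2 members without Em, 3 without EPN2, 0 without EPN1 and 0 without LPN. DESeq2, RLE in place of TMM and leaving out the rows with the suffix -ext called the same 2. Over all genes, 1009 calls became 2884 with DESeq2, 2884 with the block, 5393 with both, 506 with no filter, 70 to 1199 with 1 library left out, and 1730, 8, 2989 and 22 with the block and without Em, EPN1, EPN2 and LPN. The 14 calls in the pathway lists became 30 with DESeq2, 30 with the block, 53 with both, 2 to 17 with 1 library left out and, with the block, 26, 0, 33 and 3 without Em, EPN1, EPN2 and LPN. Between lines, 744 genes became 4565 with the DESeq2 likelihood ratio test, 1163 with no filter and 24 to 969 with 1 library left out, and the 2 members became 3 with the likelihood ratio test (CCNE1 in addition) and 0 to 2 with 1 library left out. Fits without 1 line or library had fewer samples, and what else moved these counts was not tested.

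The sign of CCND3 was not stable, at 0.0127 in DESeq2 with the block, -0.159 to 0.184 with 1 library left out and 0.0826 and 0.218 in the block fits without EPN1 and without EPN2. CDC25A ranged from -0.0222 to 0.182 and CDKN2A from -0.219 to 1.496 with 1 library left out, and CDC25A was -0.0424 in the block fit without EPN1. The other members kept their direction under every alternative that was run.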
